A study of Canis lupus familiaris with 30 samples.

Results

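The 100 genes described here had the steadiest RNA levels across the stroma of canine mammary carcinoma and the normal stroma of the same dogs. They were chosen by measured values from a table of 18582 genes, in 28 of its 30 libraries. A gene entered the choice when its median level lay between 50 and 500 CPM in both stromas, which 1673 genes did. CPM, the usual unit of depth-corrected counts, was the count of a gene scaled to a common library total, after correction of the totals by the trimmed mean of M-values (TMM), a method that sets library totals so that most genes show no change between libraries. Genes whose level followed the dog, with a Pearson correlation of 0.8 or more between a dog's 2 libraries, were left out, which removed 13 genes and left 1660. None of the 13 had a standard deviation (SD) as small as the largest among the members. The 100 genes with the smallest SD of log2(CPM + 1) over the 28 libraries were then taken, so that small spread is what defines them and is given below as a description, with no test. They are compared with the 1573 other genes of the same CPM window, or, where so stated, with all 1673 window genes, which include the members.

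The libraries came from 15 female dogs with spontaneous simple mammary carcinoma, a carcinoma of a single cell type. The tissue was removed at surgery and kept formalin-fixed and paraffin-embedded (FFPE). From each dog, cancer-associated stroma (CAS) and normal stroma beside unaltered gland, on the same slides, were cut out by laser-capture microdissection, and low-input stranded total RNA-seq gave 15 CAS and 15 normal stroma libraries. The dogs were 4 to 14 years old and the samples had been stored for 3 to 27 months. In all, 6 dogs were labelled neutered and 9 were not, and 8 carcinomas were labelled tubular, with the other 7 tubulo-papillary, cystic-papillary, tubular-solid or cribriform. There was no healthy dog among the samples, so the normal stroma is that of tumour-bearing animals. In bulk samples such as these, fewer cells of a type and less RNA per cell cannot be told apart.

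Genes with steady RNA are used as reference genes, against which other genes are scaled in quantitative PCR. They often serve functions that every cell needs, such as splicing, protein turnover, vesicle transport or mitochondrial upkeep. Stroma is a mixed tissue of fibroblasts, matrix, vessels, immune cells and, in the mammary gland, fat, and carcinoma changes its cellular makeup. Whether the members serve such functions was not analysed here. Genes are named by their Ensembl dog identifiers, because no gene symbol, chromosome position or sequence was paired with these identifiers in the sources used here, and the labelled tissue was likewise not checked against its cell type markers. Levels are given as CPM and not per length, so they are meant for comparison between libraries. Where genes are ordered by CPM below, the order also depends on transcript length.

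Library totals ran from 1361951 to 5572761 estimated counts in CAS, with a median of 3434684, and from 617177 to 3932370 in the 13 normal stroma libraries used for the choice. The normal stroma libraries of dogs 128 and 136 held only 29284 and 32528 counts and were not used to choose the members. The main comparison of CAS with normal stroma, which includes them, is also given without them. The most abundant gene took 13.8% to 38.7% of the counts of a library, and TMM factors ran from 0.681 to 1.63 over the 28 libraries. The members together received 9118 to 148512 counts per library. All 100 had counts in all 28 libraries, and the lowest count of any member in any of them was 25, in the normal stroma of dog 131. The intervals of shares given below cover counting error only.

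The spread of the members is the value that chose them. Their SD of log2(CPM + 1) over the 28 libraries ran from 0.159 to 0.270, with a median of 0.25, against 0.27 to 3.45 and a median of 0.46 in the other genes of the window. Of the members, 7 had an SD under 0.2, 42 between 0.2 and 0.25, and 51 above 0.25. Most of the list therefore lies close under the threshold. On the CPM scale the coefficient of variation (SD over mean) was 11.7% to 19.8%, with a median of 17.2% in the members and 31.2% in the other window genes. The highest CPM of a member was 1.54 to 2.85 times its lowest over the 28 libraries, with a median of 2.06. It was over 2 times in 61 members and over 3 times in none, where 97.4% and 72.8% of all window genes exceeded these ratios. Even the steadiest genes thus moved by more than 1.5-fold between some pair of libraries.

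**Figure D1:**
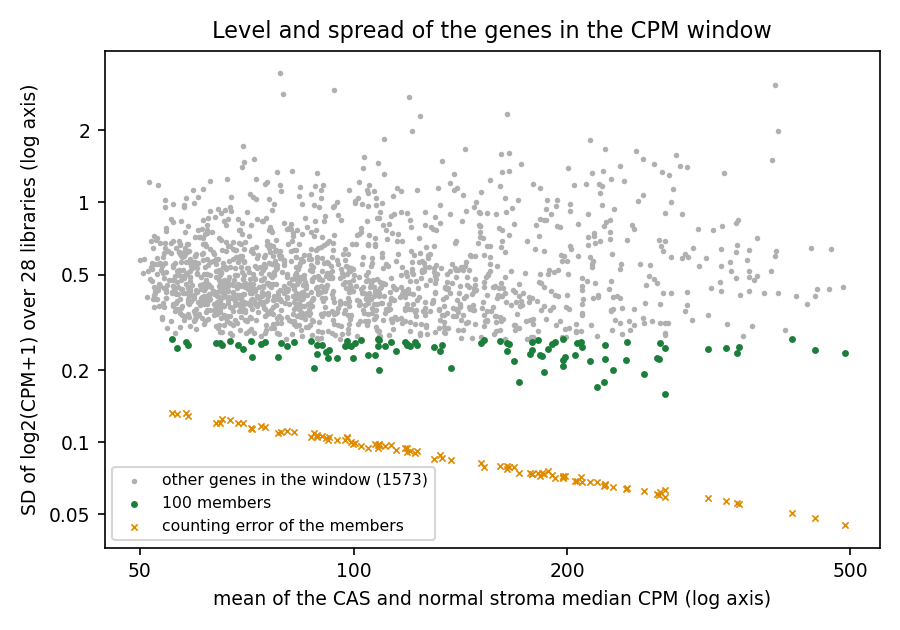
Each point is a gene of the CPM window, by the mean of its median CPM in the 2 stromas (log axis) and the SD of its log2(CPM + 1) over 28 libraries (log axis), with the 100 members in green, the 1573 other genes in grey and the part of the members' SD that counting alone gives as orange crosses. The members form the lower edge of the cloud at every level, from an SD of 0.159 to 0.270, and counting error lies below all of them.

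The step from member to non-member was small. Just inside the threshold were ENSCAFG00000012045, ENSCAFG00000007528 and ENSCAFG00000012057, with SDs of 0.2693, 0.2697 and 0.2698. Just outside it were ENSCAFG00000020423, ENSCAFG00000000215 and ENSCAFG00000009720, with SDs of 0.2699, 0.2701 and 0.2703. Membership at this edge separates genes of nearly equal spread.

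Counting error took only a small part of the spread. The SD that Poisson counting alone would give was 0.045 to 0.132 on the same log2 scale, with a median of 0.087. It made up 13.2% of the variance of a member in the median, with a range of 3.56% to 28.4%, against 5.41% in the other window genes. The fitted biological coefficient of variation, which edgeR estimates between samples beyond counting, had a median of 23.4% in the members, 32.4% in the other window genes and 56.9% in all 13424 genes with a summed count of 100 or more. The lowest fitted value of any gene, 20.3%, was that of a member. The fitted values of the members, up to 25.2%, all lay above their measured coefficients of variation of 11.7% to 19.8%, which include counting. They are therefore not read as the members' own variation between samples.

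The members were spread over the whole CPM window but lay higher in it than the other genes. Their median CPM ran from 53.7 to 489 in CAS and from 54.7 to 492.5 in normal stroma, with medians over members of 126 and 137, against 88.3 and 89.2 in the other window genes. Only 12 of the 491 window genes with a mean level up to 75 CPM were members, a share of 2.44%. The share was 4.75% between 75 and 100 CPM, 5.76% between 100 and 150, 11.4% between 150 and 200, 12.9% between 200 and 300, and 10.0% above 300 CPM. Counting error falls with the level, as the orange crosses in the plot of level and spread show. Its part in this gradient was not tested. CPM is not corrected for length, so the gradient is one of scaled counts and not of transcript number.

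The lowest and highest levels show what steadiness meant in absolute terms. The 3 members with the lowest levels were ENSCAFG00000007528, ENSCAFG00000004157 and ENSCAFG00000009654. ENSCAFG00000007528 ran from 41.6 through a median of 56.2 to 74.7 CPM in CAS, and from 36.9 through 54.7 to 76.7 in normal stroma. ENSCAFG00000004157 ran from 37.0 through 53.7 to 68.1 CPM in CAS and from 45.7 through 59.2 to 76.0 in normal stroma. The ranges of the 2 stromas overlapped over most of their width in both genes. The 3 members with the highest levels were ENSCAFG00000019158, ENSCAFG00000011037 and ENSCAFG00000012057. ENSCAFG00000019158 ran from 377 through 489 to 785 CPM in CAS and from 414 through 492.5 to 612 in normal stroma. ENSCAFG00000011037 ran from 381 through 474 to 639 CPM in CAS and from 328 through 419 to 561 in normal stroma. ENSCAFG00000012057 ran from 353 through 423 to 569 CPM in CAS and from 250 through 405 to 513 in normal stroma. Here too the stromas overlapped, and the highest value of each of the 3 genes was in a CAS library. The limit on total spread favours overlap in the members, and the share of window genes with overlapping ranges was not counted.

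The 10 members with the smallest SD held their TMM-scaled levels within narrow limits in both stromas. Their SDs of 0.159 to 0.204 on the log2 scale became 0.298 to 0.419 when library totals were used without TMM, with 0.324 for ENSCAFG00000015804, 0.298 for ENSCAFG00000000533 and 0.419 for ENSCAFG00000009863. The steadiest gene of all, ENSCAFG00000015804, ran from 237 through a median of 268 to 374 CPM in CAS and from 248 through 280 to 353 CPM in normal stroma. Its means were 274 ± 32.6 CPM (SD, n = 15) and 291 ± 32.4 CPM (SD, n = 13), and its lowest and highest libraries were the CAS of dogs 123 and 132. The ranges of its stromas overlapped almost fully.

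ENSCAFG00000003389 had the narrowest total range of all members, 1.54-fold. It ran from 184 through 214 to 261 CPM in CAS and from 172 through 227 to 265 CPM in normal stroma, with an SD of 0.17 on the log2 scale. ENSCAFG00000009863 ran from 176 through 226 to 276 CPM in CAS and from 170 through 224 to 296 in normal stroma. In both genes the range of one stroma lay almost wholly within that of the other.

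ENSCAFG00000017011 was the one of the 10 with the clearest shift between stromas. It ran from 132 through 159 to 195 CPM in CAS and from 158 through 184 to 223 CPM in normal stroma. The mean of log2(CPM + 1) was lower in CAS by a difference of -0.20, the mean difference within dogs was -0.23 ± 0.18 (SD, n = 13), and CAS was the higher in only 1 of 13 dogs. The ranges of the stromas still overlapped between 158 and 195 CPM. A gene can thus pass a limit on total spread while differing in the same direction in nearly every dog, when the difference is small. Its difference took part in the choice, so no test is given.

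ENSCAFG00000016132 ran from 211 through 257 to 328 CPM in CAS and from 193 through 256 to 315 in normal stroma. ENSCAFG00000000619 ran from 159 through 184 to 222 CPM in CAS and from 126 through 186 to 231 in normal stroma. Its SD on the log2 scale was 0.13 in CAS, the smallest of any window gene in that stroma, and 0.25 in normal stroma, and its lowest and highest values were both in normal stroma, in dogs 132 and 138. Its medians were nearly equal in the 2 stromas. The difference in spread was not tested, and 61.2% of all window genes had a smaller SD in CAS than in normal stroma.

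ENSCAFG00000000533 ran from 203 through 237 to 316 CPM in CAS and from 184 through 226 to 283 in normal stroma. Its levels in the 2 stromas of a dog had a correlation of 0.60 over 13 dogs, the strongest of the 10. ENSCAFG00000016981 ran from 95.7 through 107 to 145 CPM in CAS and from 85.2 through 110 to 133 in normal stroma, with a correlation of -0.35 between the stromas. The correlations thus had either sign among the steadiest genes.

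ENSCAFG00000017531 ran from 110 through 133 to 189 CPM in CAS and from 123 through 141 to 192 in normal stroma. ENSCAFG00000007675, the lowest in level of the 10, ran from 55.9 through 87.8 to 108 CPM in CAS and from 66.6 through 88.2 to 97.5 in normal stroma. In all 10 genes the ranges of the 2 stromas overlapped, which their small total spread favours. Overlap was not counted in the other window genes, so it is not read as a trait of these 10.

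**Figure D2:**
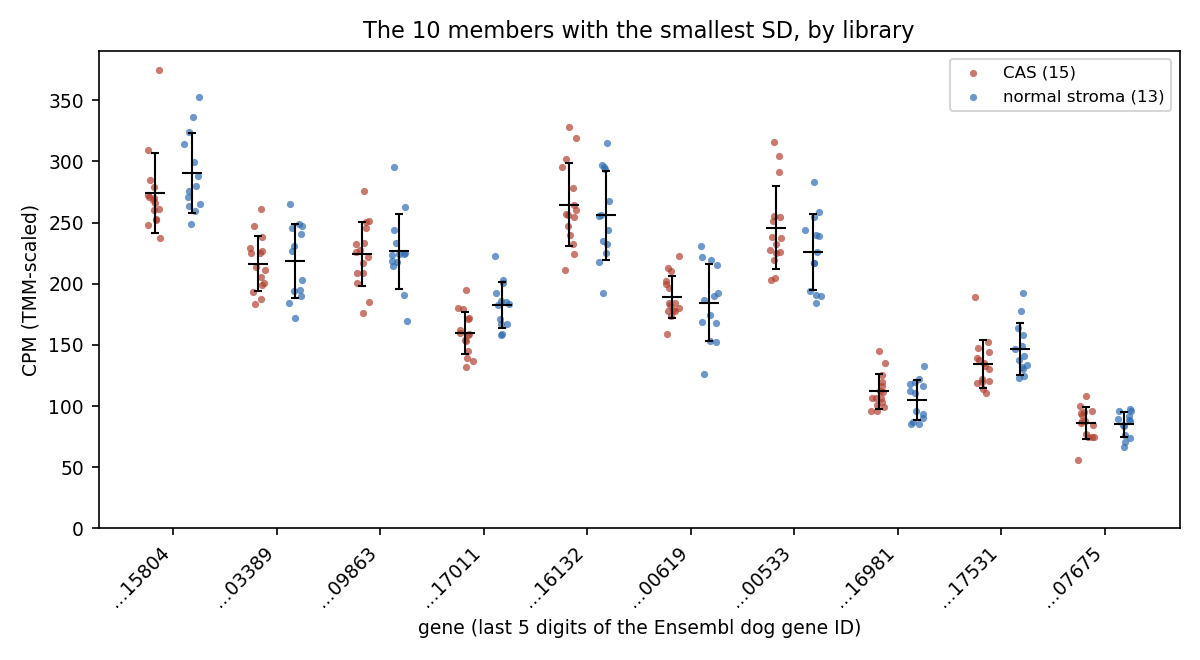
TMM-scaled CPM (linear axis from 0) of the 10 members with the smallest SD in each of 15 CAS libraries (red) and 13 normal stroma libraries (blue), with the mean and SD as black marks. The clouds of both stromas overlap in every gene, and ENSCAFG00000017011 shows the clearest offset, with a median of 159 CPM in CAS and 184 in normal stroma.

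Within each stroma the members were about equally tight. The median SD of log2(CPM + 1) was 0.23 within the 15 CAS libraries, with a range of 0.130 to 0.317, and 0.25 within the 13 normal stroma libraries, with a range of 0.126 to 0.354. The other window genes had medians of 0.40 and 0.46. The SD was smaller in CAS than in normal stroma in 61 of the 100 members, close to the 61.2% of all window genes. The difference between the 2 libraries of a dog had a median SD of 0.31 over 13 dogs in the members and 0.56 in the other window genes.

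The level of a member in one stroma of a dog told little of its level in the other, much as in the window as a whole. The correlation of log2(CPM + 1) between the stromas of a dog had a median of 0.17 over the members, from -0.61 to 0.76 over 13 dogs, with 29 members negative and 12 above 0.5. Over all window genes the median was 0.21, with 16.4% above 0.5. Both libraries of a dog share the animal, the slide and the storage time.

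Differences between CAS and normal stroma were small in the members, which the limit on total spread fixes in large part. The difference of the mean log2(CPM + 1), CAS minus normal stroma, ran from -0.26 to 0.36 with a median of -0.02, and 46 members were higher in CAS and 54 lower, where 54.8% of all window genes were higher and 45.2% lower. It exceeded 0.2 in size in 5 members and 0.5 in none, where 48.8% and 16.7% of all window genes did. No member was higher in CAS in all 13 dogs or lower in all 13, as 1.55% and 2.75% of window genes were.

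The 5 members beyond 0.2 are named after their values were seen. ENSCAFG00000016640 had the largest difference, and ran from 162 through 191 to 221 CPM in CAS and from 126 through 138 to 211 in normal stroma. Its difference within dogs was 0.35 ± 0.25 (SD, n = 13) on the log2 scale, and CAS was the higher in 12 of 13 dogs. ENSCAFG00000011552 and ENSCAFG00000010598 were both higher in CAS by 0.22. Lower in CAS were ENSCAFG00000000453, with a difference of -0.26, and ENSCAFG00000016095, with -0.24, and in each CAS was the higher in 3 of 13 dogs. The stromas overlapped in all 5 genes, which the limit on total spread again favours. The upper end of the normal stroma range of ENSCAFG00000016640 lay well above its CAS median.

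The comparison of CAS with normal stroma was also fitted over all genes with edgeR's quasi-likelihood test, in all 30 libraries and with 6 surrogate variables for unwanted variation. None of the 100 members was called at a false discovery rate (FDR) below 0.01, where 480 of 10472 genes tested were, or 4.58%. These were 3.06% higher and 1.53% lower in CAS, and 3.64% were called with a fold change above 2 as well. At an unadjusted p under 0.05 there were 8 members, against 23.8% of all genes tested. The same contrast took part in the choice of the members, so nothing is read from these counts. The log2 fold change of the members ran from -0.18 to 0.54, with a median of 0.02 and a median size of 0.08. Above 0 were 53 of the 100 members, 953 of the 1573 other window genes and 7284 of the 10472 genes tested. The median over all genes tested was 0.22, with a median size of 0.35. The median size was 0.21 in the other window genes. The fold changes of the members had a median standard error (SE) of 0.114 against 0.170 in the other window genes and 0.312 in all genes tested.

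The fold changes of the 2 highest members varied with the libraries and the model of the fit. ENSCAFG00000009654 had the highest, a log2 fold change of 0.54 (SE 0.147, edgeR adjusted p = 0.0187), and ENSCAFG00000017691 the next, 0.47 (SE 0.149, edgeR adjusted p = 0.0417). Both had counts of 0 in both normal stroma libraries left out of the choice, where the composition of the other normal libraries would give 2.53 and 1.72 counts for the first gene and 3.28 and 2.23 for the second. In the fit of the 28 libraries their log2 fold changes were 0.16 and 0.18, with edgeR adjusted p of 0.381 and 0.351. With all 30 libraries and the dog as a block in place of the surrogate variables they were 0.24 and 0.28, with edgeR adjusted p of 0.556 and 0.444. In the 28 libraries ENSCAFG00000017691 ran from 58.6 through 76.3 to 98.4 CPM in CAS and from 49.7 through 72.1 to 91.7 in normal stroma. ENSCAFG00000009654 ran from 41.6 through 60.8 to 83.8 CPM in CAS and from 40.4 through 55.6 to 68.3 in normal stroma. The lowest fold changes were those of ENSCAFG00000012045, -0.18 (SE 0.109, edgeR adjusted p = 0.335), and ENSCAFG00000005086, -0.18 (SE 0.113, edgeR adjusted p = 0.358). In the 28 libraries these were -0.20 and -0.18, and with the dog as a block in 30 libraries -0.07 and -0.17. The median over all genes tested was 0.05 in the 28 libraries, against 0.22 in the 30, and that over the members was -0.04 against 0.02.

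The other fits of this contrast called 1 member at most. In the 28 libraries none of the members was called, where 7.22% of 10663 genes were, and the smallest distance from the threshold was that of ENSCAFG00000016640, with a log2 fold change of 0.33 (SE 0.0955, edgeR adjusted p = 0.0204). With the dog as a block none was called, where 6.34% of genes were in 30 libraries and 7.13% in 28. DESeq2 with the same surrogate variables was fitted only in all 30 libraries. There 7.86% of genes were called and 1 member, again ENSCAFG00000016640, with a log2 fold change of 0.31 (SE 0.0872, DESeq2 adjusted p = 0.00539). It is the gene that also had the largest difference of mean levels.

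The libraries differed in how far the members lay from their own means. The median absolute deviation of the 100 members from their means ran from 0.106 to 0.254 on the log2 scale over the 28 libraries. The normal stroma of dogs 130 and 131 had the largest values, 0.254 and 0.253, and those libraries held 1141471 and 617177 counts. Each member has 1 lowest and 1 highest library, which gives 200 extremes in all. The normal stroma of dog 131 held 21 of them, 17 of which were lowest values, that of dog 134 held 19 and that of dog 130 held 17. The CAS of dogs 131 and 138 held 1 each. The CAS of dog 132 and the normal stroma of dog 132 held 11 each, so the remaining extremes were spread over many libraries of both stromas. All window genes also deviated most in the normal stroma of dogs 131, 134 and 130, by medians of 0.537, 0.409 and 0.407. Of these libraries that of dog 134, with 2542342 counts, was of median depth.

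**Figure D3:**
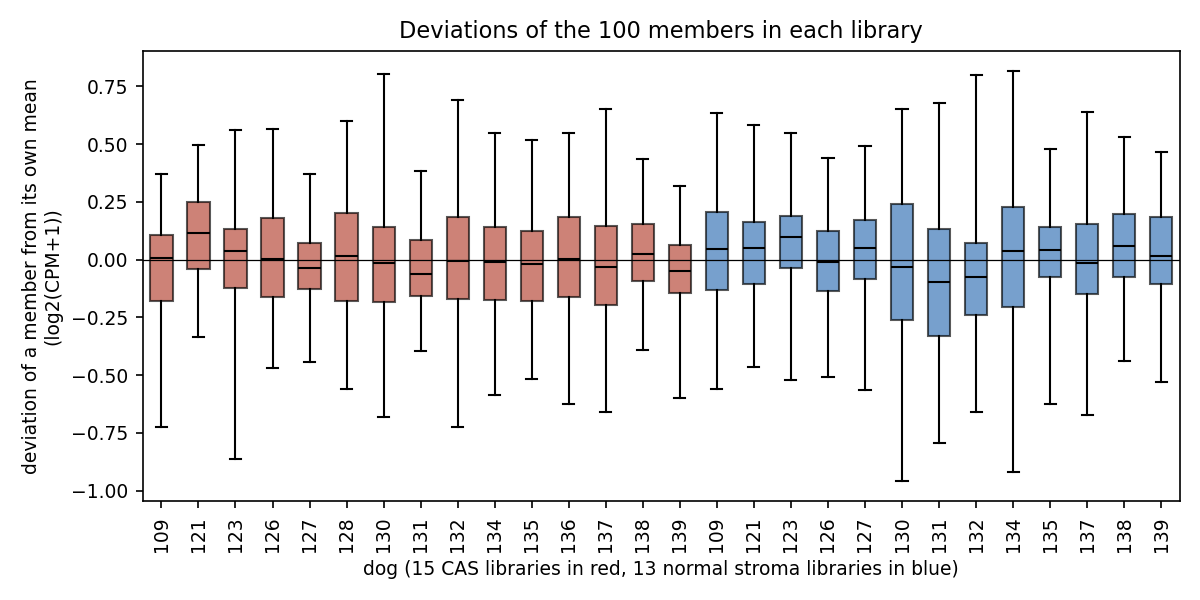
Deviation of the 100 members from their own mean log2(CPM + 1) in each of 15 CAS libraries (red) and 13 normal stroma libraries (blue), with boxes from the lower to the upper quartile, a line at the median and whiskers to the lowest and highest member. All medians lie near 0, and the boxes of the normal stroma of dogs 130, 131 and 134 are the widest.

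Whether the choice holds in animals it did not use was measured by leaving out each dog in turn, choosing 100 genes again by the same rule, and reading these genes in the libraries of that dog. The choice used TMM factors computed without that dog, and the reading used those of all 28 libraries. In CAS, the chosen genes deviated from the mean of the other CAS libraries by a median size of 0.188 over the 15 dogs, from 0.111 in dog 127 to 0.260 in dog 132. The other window genes deviated by 0.303, from 0.2004 to 0.360, and the chosen genes lay lower in 15 of 15 dogs. In normal stroma the median was 0.187 for the chosen genes, from 0.134 to 0.399, and 0.291 for the others, from 0.224 to 0.544, and the chosen genes lay lower in 13 of 13 dogs. The largest value was that of dog 131, 0.399 against 0.544. The chosen genes had higher levels than the other window genes, and the part of this in the difference was not tested.

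**Figure D4:**
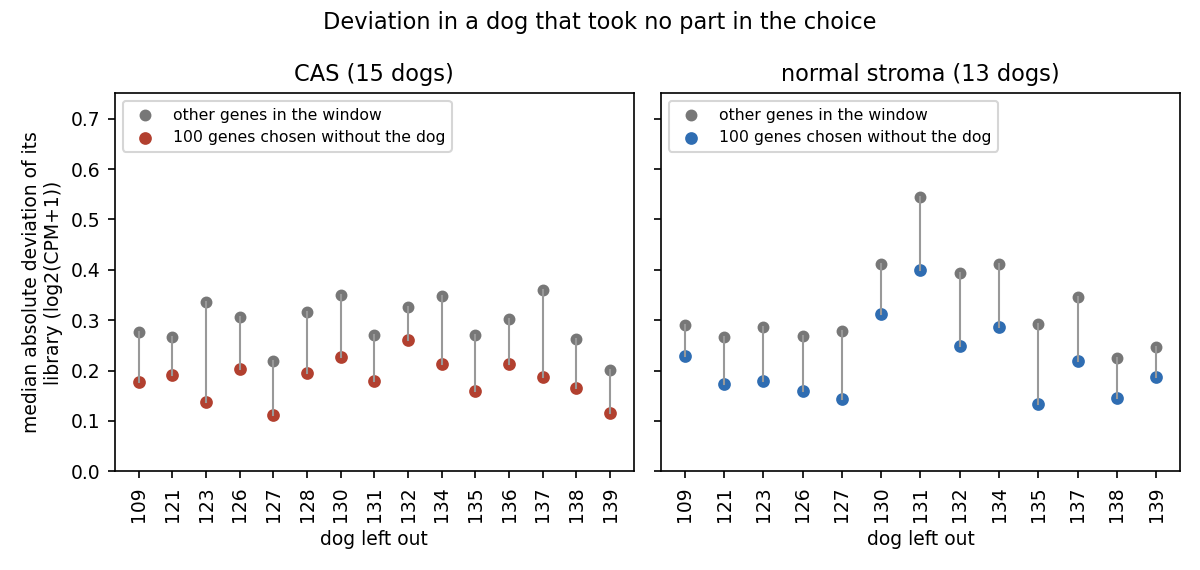
Median absolute deviation of log2(CPM + 1) in the dog left out, for the 100 genes chosen without that dog (coloured) and for the other genes of the CPM window (grey), in CAS (15 dogs) and normal stroma (13 dogs). The coloured point lies below the grey point of the same dog in every case, and dog 131 has the highest points in normal stroma, 0.399 and 0.544.

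The list itself changed with the dogs. Between 75 and 96 of the 100 members were chosen again without a dog, with the fewest without dog 131, then 78 without dog 130 and 82 without dogs 132 and 134. The list without dog 127 shared the most. These 4 dogs are among those whose normal stroma libraries held the most extremes.

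Spread in one stroma carried over to the other only in part. The 100 window genes with the smallest SD in CAS alone had a median SD of 0.34 in normal stroma, against 0.46 in the other window genes, and 79 of them lay below the median of the window. The 100 with the smallest SD in normal stroma alone had a median SD of 0.27 in CAS, against 0.40, and 89 lay below the median of the window. The 2 lists shared 23 genes, and a list of 100 is 5.98% of the window. The members share 50 genes with the first list and 62 with the second. Both stromas come from the same dogs.

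The normal stroma libraries of dogs 128 and 136 took no part in the choice and show the members at very low depth. In dog 128 the members received 732 of 29284 counts, or 2.50% (95% exact binomial interval 2.32% to 2.68%), and 94 of the 100 members had a count, where 90.4% of window genes did. In dog 136 they received 498 of 32528 counts, or 1.53% (1.40% to 1.67%), and 92 had a count, where 85.5% of window genes did. The CAS libraries of the same dogs gave 1.98% and 1.39%. A member without a count in these libraries had an expected count of 2.53 to 6.31 in dog 128 and 1.72 to 3.87 in dog 136, so that its absence cannot be read at this depth in most cases. ENSCAFG00000011906, ENSCAFG00000017691 and ENSCAFG00000009654 had 0 counts in both, and the first of these was named after its values were seen.

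The proportions among the members were kept more closely in these libraries than those among the other window genes. The ranks of the members' counts had a Spearman correlation with their mean share in the 13 other normal stroma libraries of 0.75 in dog 128 and 0.69 in dog 136, against 0.44 and 0.49 in the other window genes, which have lower counts. The chi-square of the counts against the mean composition, divided by its degrees of freedom, is 1 when counting is the sole source of spread. It was 2.09 and 1.40 in the members and 3.92 and 3.40 in the other window genes. In the 13 other normal libraries, thinned to 29284 counts, it ran from 0.826 to 1.44 in the members, with a median of 1.20, and from 1.39 to 5.35 in the other window genes, with a median of 1.85, although the members were chosen on those libraries. Dog 128 thus lay above the range of the 13 in the members, and dog 136 within it.

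Single members that stood away from the expected count in these libraries are named after their values were seen. Residuals are the count minus its expectation, divided by the square root of the expectation. In dog 128, 12 members had a residual above 2, led by ENSCAFG00000000478 with 13 counts where 4.10 were expected. In dog 136, 7 did, led by ENSCAFG00000019158 with 32 counts where 15.4 were expected. Below -2 in dog 128 were ENSCAFG00000032392, with 0 counts where 6.31 were expected, ENSCAFG00000014975, ENSCAFG00000016095 and ENSCAFG00000004511, and in dog 136 ENSCAFG00000000533, with 1 count where 7.02 were expected. With this measure a member with an expected count under 4 cannot fall below -2, so the counts in the 2 directions are not compared.

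As a share of all counts, the members as a set were not steady. They took 1.72% ± 0.457 of the library total in CAS (SD, n = 15) and 1.56% ± 0.345 in normal stroma (SD, n = 13), from 1.05% in the CAS of dog 131 to 2.66% in the CAS of dog 121. This is a 2.54-fold range with a coefficient of variation of 24.9%. The difference within dogs, CAS minus normal stroma, was 0.174 ± 0.378 percentage points (SD, n = 13), and CAS was the higher in 10 of 13 dogs. The ranges of the stromas overlapped over most of their width.

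After TMM scaling the same sum was almost constant. It was 1.60% ± 0.0543 of the scaled total in CAS (SD, n = 15) and 1.61% ± 0.0612 in normal stroma (SD, n = 13), from 1.47% in the normal stroma of dog 131 to 1.74% in the CAS of dog 121, a 1.18-fold range with a coefficient of variation of 3.53%. The difference within dogs was -0.00549 ± 0.0772 percentage points, and CAS was the higher in 5 of 13 dogs. The members were chosen on the TMM scale, so the step from 24.9% to 3.53% describes the scaling and the choice together. Leaving the most abundant gene of each library out of the total gave a coefficient of variation of 19.5%, and taking the members as a share of the counts of the window genes gave 5.72%. The share of the window genes in the library total moved along, from 14.4% to 31.4%.

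**Figure D5:**
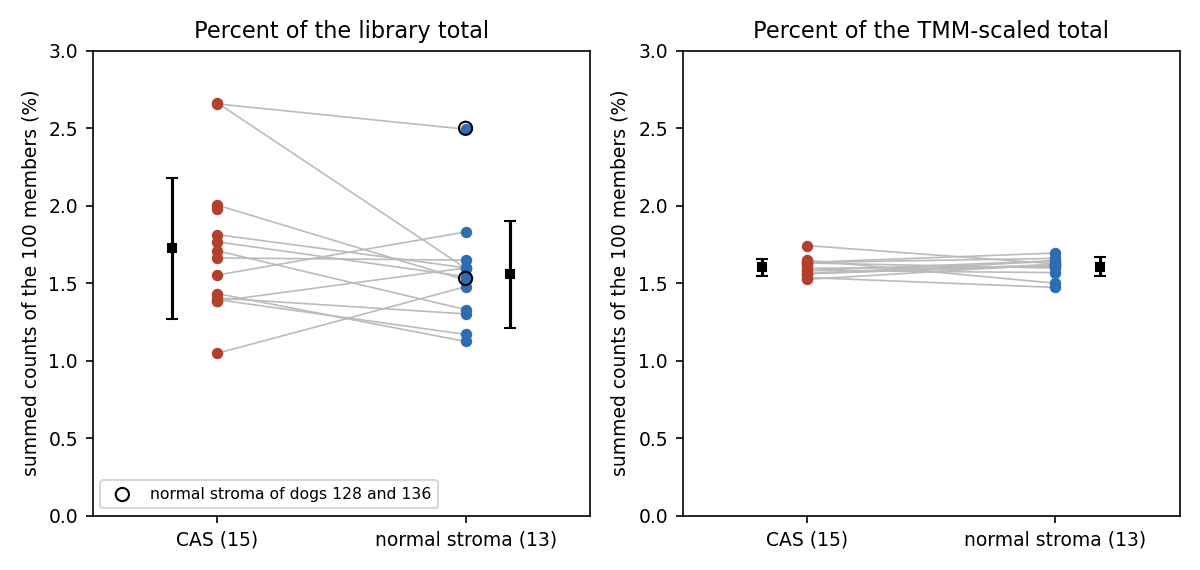
Summed counts of the 100 members as a percentage of the library total (left) and of the TMM-scaled total (right) in 15 CAS (red) and 13 normal stroma (blue) libraries, with grey lines joining the stromas of a dog and black squares and bars giving mean and SD. The share of the raw total ran from 1.05% to 2.66% and that of the scaled total from 1.47% to 1.74%, and open circles mark the normal stroma of dogs 128 and 136, which were not used to choose the genes.

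Means of several members had a smaller SD than the steadiest member alone. The genes and their order came from these same 28 libraries on the TMM scale, so these values are a description only. The SD over 28 libraries was 0.159 for the steadiest gene alone, 0.0652 for the mean log2(CPM + 1) of the 3 steadiest, 0.0580 for 10, 0.0424 for 30 and 0.0446 for all 100. The mean of all 100 was lowest in the normal stroma of dog 131, by a deviation of -0.11, and highest in the CAS of dog 121, by 0.10. The ratio of 2 members hardly depends on the library total. Over the 4950 pairs the SD of the log2 ratio was 0.174 to 0.469, with a median of 0.34, and the mean SD of a member's ratios to the other 99 was 0.287 to 0.370. The ratio of a pair carries the variation of both genes, so its SD is not compared with that of a single member.

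The members varied less with the labels of the dogs than other window genes did, which their small SD again fixes in part. Between the 6 dogs labelled neutered and the 9 others the difference of mean log2(CPM + 1) in CAS had a median size of 0.098 in the members and 0.158 in the other window genes, and exceeded 0.2 in 14 members and in 38.1% of window genes. In normal stroma, with 5 and 8 dogs, the median size was 0.121 against 0.240, and it exceeded 0.2 in 25 members and in 55.0% of window genes. Between tubular and other carcinomas the median size was 0.078 against 0.157 in CAS and 0.087 against 0.179 in normal stroma. The signed medians of these differences lay between -0.07 and 0.01.

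With age the members were ordered about as strongly as other genes. Spearman's rho with the storage time of the sample, given as a description over 15 CAS libraries, had a median size of 0.22 in the members and 0.25 in the window, and over 13 normal stroma libraries 0.21 in both. With the age of the dog the median size was 0.13 against 0.15 in CAS and 0.19 against 0.20 in normal stroma. The direction of single members varied widely, from -0.78 to 0.75 for storage time in CAS, and the medians of the signed values lay between -0.09 and 0.07.

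The membership of a gene depended on how spread and level were computed. Of 12 other ways of drawing the list, 4 members were in every one: ENSCAFG00000015804, ENSCAFG00000017011, ENSCAFG00000017647 and ENSCAFG00000002261. They are named after their values were seen. ENSCAFG00000017647 ran from 189 through 277 to 309 CPM in CAS and from 208 through 261 to 392 in normal stroma. ENSCAFG00000002261 ran from 85.6 through 114 to 138 CPM in CAS and from 74.3 through 100.4 to 132 in normal stroma. Their stromas overlapped widely, with a difference of mean log2(CPM + 1) of 0.00 in the first and 0.17 in the second. In all, 28 members were in 10 or more of the 12 lists. The lists come from the same dogs, and some hardly change the rule. Without the limit on the correlation 100 members were chosen again, and with log2(CPM + 0.25) 99. The tally is therefore not one of 12 separate checks. Fewer than 6 lists held 5 members, ENSCAFG00000013033, ENSCAFG00000011427, ENSCAFG00000001048, ENSCAFG00000012045 and ENSCAFG00000007528, all of which ranked 91 or later by SD and were likewise singled out after their values were seen.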

How the data were processed

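The deposited table holds gene-level estimated counts that the authors made with kallisto 0.44.0 (CanFam3.1 transcripts, sequence bias correction) and summarised with tximport; the values are whole numbers as deposited. The counts came from single-end reads of stranded, ribosomal RNA-depleted libraries. Groups and dogs were taken from the sample titles. The members and lists were chosen with earlier results of these data known. Members were found with TMM factors from genes with a summed count of 100 or more in 28 libraries. Normal stroma of dogs 128 and 136 was left out by that rule and kept in the 30-library fit.

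CAS was compared with normal stroma in R 4.3.3 with edgeR 4.0.16 (filterByExpr, TMM, glmQLFit, glmQLFTest) on the whole table, with surrogate variables from svaseq (sva 3.50.0, number from num.sv with 20 permutations) and Benjamini-Hochberg adjustment over all genes tested, called at an FDR below 0.01. The SE was the log2 fold change over the square root of F. Alternatives were DESeq2 1.42.0, other scalings, filters, spreads and CPM windows, the dog as a block, and each dog left out. The scripts were tested on simulated data. Each pair of libraries is from one animal, and their deviations from the group means had a mean correlation of 0.129 (0.0144 to 0.302, above 0.1 in 8 of 15 dogs). The replicates are dogs.

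Genes were named by rule: the 10 smallest SDs, the 2 highest and 2 lowest fitted fold changes, the 3 genes on either side of the SD threshold, and the 3 highest and 3 lowest levels; others are said to be chosen after their values were seen. Symbol lists of reference genes, families and cell type markers, gene positions and sequences were not used here, because 0 identifiers matched the reference table. Precision is limited by depth, from 29284 to 5572761 counts per library.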

Additional observations from a re-analysis of the deposited data

Results flagged for a closer look

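Within groups of 4 to 10 libraries of one stroma and one label (neutering or subtype), 7 values stood apart from the rest, in that their gap to the nearest value was a larger part of the group's range than Dixon's 95% limit. The groups examined numbered 32 and overlap each other, and chance marks about 1 in 20 groups.

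The share of the members in the library total stood apart in the normal stroma of dog 128, with 2.50% against 1.83% in the nearest of the 7 libraries beside non-tubular carcinomas. That library holds 29284 counts and took no part in the choice. It also stood apart in the normal stroma of dog 123, with 2.49% against 1.65% in the nearest of the 8 libraries beside tubular carcinomas. As a share of the counts of all window genes the same library of dog 123 gave 8.39%, against 7.51% in the nearest.

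On the TMM scale the summed share was low in the normal stroma of dog 131, with 1.47% against 1.62% in the nearest of 6 libraries. It was high in the CAS of dog 121, with 1.74% against 1.63% in the nearest of the 9 CAS libraries of dogs not labelled neutered.

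The median absolute deviation of the members stood apart in the normal stroma of dog 134, at 0.223 against 0.159 in the nearest of the 8 dogs not labelled neutered. It also stood apart in that of dog 130, at 0.254 against 0.160 in the nearest of 7 libraries beside tubular carcinomas.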

How the results depend on the processing

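The count of members called in CAS against normal stroma was 0 in edgeR under every scaling, filter, library set and surrogate variable setting tried, and 0 in each fit without 1 dog (range 0 to 0), and DESeq2 called 1. With the dog as replicate block and no surrogate variables it was 0 in 30 and in 28 libraries. The members were chosen for small spread over 28 of these libraries, so these counts cannot show whether pairing the dogs matters. The median log2 fold change of the members in 30 libraries was 0.02 with surrogate variables, 0.05 with the block and 0.01 with neither, and in 28 libraries -0.04 with surrogate variables and -0.04 with the block. Without 1 dog the median with surrogate variables in the other dogs ran from -0.03 to 0.04. Over all genes, calls numbered 480, and 641 without surrogate variables, 664 with the block in their place, 315 with the block and surrogate variables, 770 and 760 (block) in 28 libraries, 823 in DESeq2, and 310 to 599 without 1 dog.

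Membership varied with the setting. Of the 100 members, 37 were chosen again with library totals without TMM, 50 by the median absolute deviation, 50 by the SD in CAS alone, 62 by that in normal stroma alone, 39 with all 30 libraries and 65 after thinning to the smallest total of the 28 (617177 counts). Without 1 dog 75 to 96 were chosen again, and 73 without the 2 normal stroma libraries under 1000000 counts, a choice made after seeing the data. DESeq2 size factors, other transformations, no limit on the correlation, the mean of the within-stroma SDs and a CPM window of 20 to 1000 kept 86 to 100. The median SD of the members was 0.25, rose to 0.40 with library totals without TMM (window 0.55) and to 0.29 after thinning (window 0.50), and was 0.24 without the shallow pair (window 0.42). The within-dog difference of the summed share was 0.174 ± 0.378 percentage points of the library total (SD, n = 13). It was 0.218 ± 0.359 without the most abundant gene, 0.106 ± 0.231 for the 50 steadiest members and -0.00549 ± 0.0772 on the TMM scale. CAS was the higher in 10 of 13 dogs, but in 5 of 13 on the TMM scale. The SDs give the spread between dogs and not the precision of the mean. The left-out dog deviation stayed below that of the other window genes in every dog with DESeq2 size factors, the median absolute deviation and 50 genes. Depth limits what can be said of single members in the normal stroma of dogs 128 and 136. The CPM values and fold changes are on a scale set by most genes, and shares and ratios are relative to other counts, so a change of total RNA per cell could not be seen. The causes of these changes were not tested.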
